A study of Mus musculus with 5 samples.

Results

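The 10 genes described here encode Il10, Il21, the Th2 cytokines Il4, Il5 and Il13, the Th9 cytokine Il9, the Th17 cytokines Il17a, Il17f and Il22, and Il24, a cytokine of the IL-10 family. They were taken by name, through the RefSeq accession of their array probes, and make up 10 of the 21366 genes measured. Each had 1 probe. Of these genes, 7 gave a signal well above background in at least 1 culture, against 65.8% of all genes, and Il5, Il9 and Il17a gave none in any culture.

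RNA of CD4 T cells from C57BL/6 mice was measured on 1-colour arrays, 1 array for each of 5 cultures, so there were no replicates and no test could be made. Every culture began with naive CD4 T cells of the spleen and was kept in IL-2 with IL-4 blocked. Th1reg cells were Th1 cells that had been rested and then held for 4 days in the iTreg medium, which holds antibodies to CD3 and CD28, TGF-beta, IL-2 and blocking antibodies to IFN-gamma and IL-4, and they were 12 days old. Th1+TGFb cells were Th1 cells moved into that medium for 4 days without the rest, for 8 days in all. iTreg cells were naive cells kept in that medium for 4 days. Rested cells were Th1 cells kept for 4 more days in IL-2 with IFN-gamma and IL-4 blocked and no stimulation of CD3 or CD28, for 8 days in all. Th1 cells had received antibodies to CD3 and CD28 for 4 days together with IL-12 and IL-2. The labels do not say how many mice gave the cells of a culture. In a bulk culture, fewer cells of a type and less RNA per cell cannot be told apart.

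Helper T cells are grouped by the cytokines they secrete. Th2 cells are known for IL-4, IL-5 and IL-13, Th9 cells for IL-9 and Th17 cells for IL-17A, IL-17F and IL-22, and each set is favoured by its own transcription factors. IL-21, which acts on B cells and on the T cells that make it, and IL-10, which restrains antigen-presenting cells and inflammation, are made by more than 1 helper type, Th1 cells among them.

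The bases before the start of 4 of these genes are shown as examples of 4 different detection patterns: Il21 in Th1reg, Th1+TGFb and Th1 cells, Il22, like Il10, in Th1+TGFb and Th1 cells, Il4 in Th1reg cells and Il17f in iTreg cells. Each run is the 250 bases before the RefSeq start, 5′ to 3′ on the gene's strand, in build GRCm38.p6. The positions are chr3:37232637-37232886 (minus strand) for Il21, chr10:118204714-118204963 (plus strand) for Il22, chr11:53618666-53618915 (minus strand) for Il4 and chr1:20784271-20784520 (minus strand) for Il17f. Capitals mark GGAAA, the core bound by NFAT, a factor that the T cell receptor activates, or its complement TTTCC.
Il21: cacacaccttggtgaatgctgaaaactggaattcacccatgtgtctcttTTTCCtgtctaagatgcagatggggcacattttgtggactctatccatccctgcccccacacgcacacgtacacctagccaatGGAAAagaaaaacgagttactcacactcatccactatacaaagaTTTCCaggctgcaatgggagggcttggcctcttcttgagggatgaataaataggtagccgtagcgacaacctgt
Il22: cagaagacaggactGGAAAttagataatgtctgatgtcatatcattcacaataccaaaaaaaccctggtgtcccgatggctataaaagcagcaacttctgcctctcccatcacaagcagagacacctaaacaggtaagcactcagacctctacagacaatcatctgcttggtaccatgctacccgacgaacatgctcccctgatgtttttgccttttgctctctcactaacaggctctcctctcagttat
Il4: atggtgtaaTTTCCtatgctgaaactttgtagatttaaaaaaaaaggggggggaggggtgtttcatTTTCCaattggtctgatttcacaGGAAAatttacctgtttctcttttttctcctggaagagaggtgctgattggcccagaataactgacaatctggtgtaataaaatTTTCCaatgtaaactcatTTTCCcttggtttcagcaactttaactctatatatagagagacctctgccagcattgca
Il17f: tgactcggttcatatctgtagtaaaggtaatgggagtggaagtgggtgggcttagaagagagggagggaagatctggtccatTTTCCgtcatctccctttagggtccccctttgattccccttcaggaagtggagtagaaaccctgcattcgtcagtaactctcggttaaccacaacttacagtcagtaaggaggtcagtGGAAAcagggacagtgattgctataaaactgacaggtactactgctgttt

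GGAAA was searched on both strands, and 55.6% of 32851 RefSeq promoter windows of this length hold it at least once. It was found 5 times before Il4, 4 times before Il13, 3 times each before Il9 and Il21, 2 times each before Il5 and Il17f, 1 time before Il22 and 0 times before Il17a. The matches counted here overlapped no match of the other searched motifs in the printed windows. GTGTGA, the core of the T-box element read by T-bet, lay before Il21 on the other strand. It is printed as its complement TCACAC, which begins at -98, and 12.3% of all windows hold the motif. A match describes the letters in the window and no binding was measured. Il10 and Il24 were not among the promoter windows used here.

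The signals below are the scanner's background-subtracted intensities. A signal not marked as well above background has no level, only a bound. The lowest signals that were well above background were 21.3 on the Th1reg array, 18.3 on the Th1+TGFb array, 21.3 on the iTreg array, 16.3 on the rested array and 19.0 on the Th1 array. Where a level or a difference between arrays is given, the signal was first divided by the array's own 75th percentile and put on the log2 scale, so that 0 is that percentile. The 75th percentiles were 306, 198, 271, 144 and 239 in the same order, and 45.7% to 48.7% of the spots on an array were well above background. The 5 arrays shared their slide, scan and the software's extraction of signals from the image, so none of these separates the cultures. This does not refer to the extraction of RNA. The 6 markers of CD4 T cells looked for (Cd4, Cd3e, Cd3d, Cd3g, Cd5 and Cd28) were well above background in every culture.

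**Figure D1:**
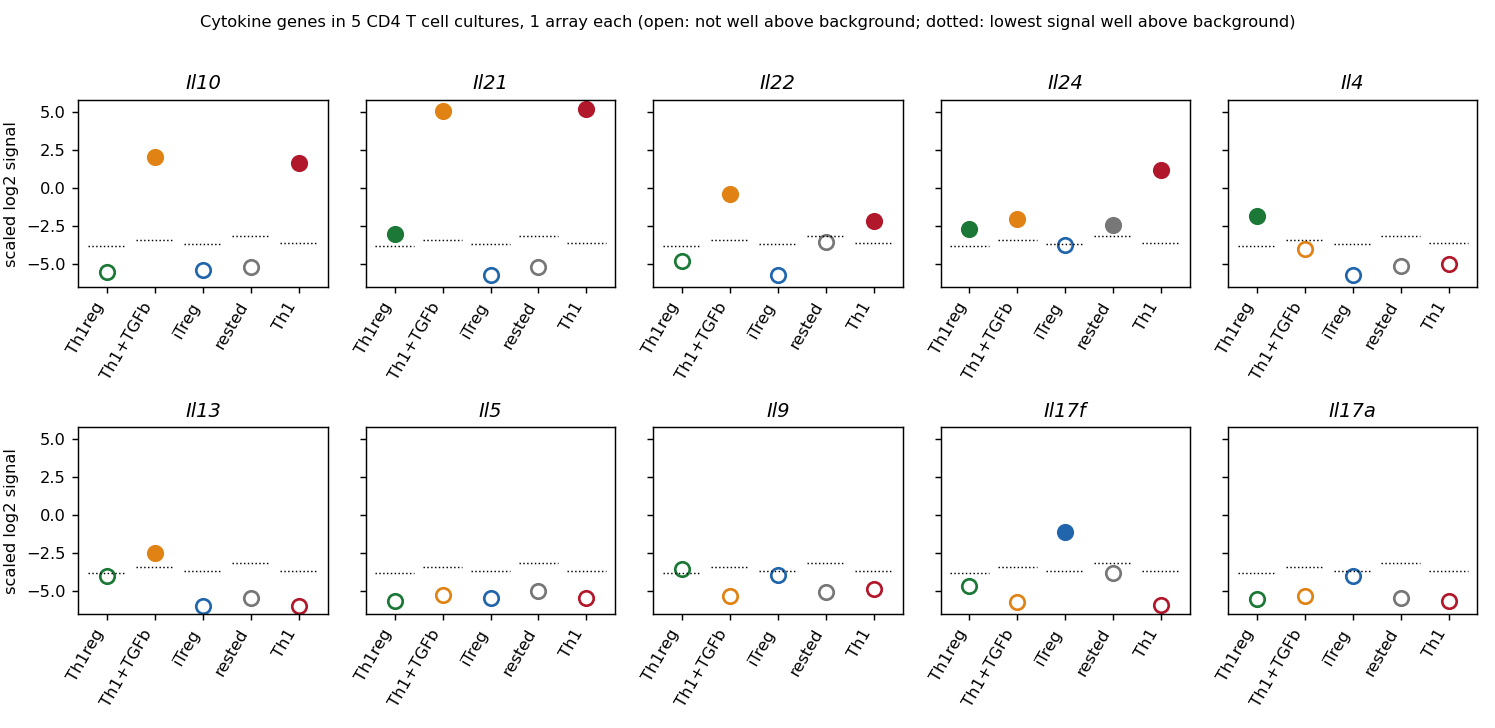
Scaled log2 signal (y axis, 0 is the array's 75th percentile) of the 10 cytokine genes in the 5 cultures (x axis), 1 point per array. Filled points are well above background, open points are not, and dotted lines mark the lowest scaled signal well above background on each array; Il10 and Il21 stand far above that line in Th1+TGFb and Th1 cells and Il4 stands above it in Th1reg cells.

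IL-10 is the best known inhibitory cytokine of helper T cells. Its probe had a signal of 6.62 in Th1reg cells, 811 in Th1+TGFb cells, 6.40 in iTreg cells, 3.96 in rested cells and 762 in Th1 cells. It was well above background in Th1+TGFb and Th1 cells and in no other culture, a pattern that 0.417% of all genes had. The probe was printed 10 times on each array, and the SD over its spots was 47.2 in Th1+TGFb cells (10 spots) and 29.1 in Th1 cells (8 spots used). That spread is technical and says nothing of how cultures would vary. The scaled level was 2.03 in Th1+TGFb cells and 1.67 in Th1 cells, a log2 difference of 0.36. It exceeded the technical SD of a log2 difference between 2 single spots, which was 0.10 to 0.11 for probes with repeat spots at signals of 100 to 1000, and stayed under 2-fold. The Il10 levels are means over 10 and 8 spots, so that SD is wider than their own technical spread. The difference was -0.01 with scaling to spike-in controls and 0.60 with scaling to the 75th percentile of probes detected on all arrays, so the order of the 2 cultures is not settled.

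The signal of Il21 was 37.8 in Th1reg cells, 6563 in Th1+TGFb cells, 5.17 in iTreg cells, 3.94 in rested cells and 8869 in Th1 cells. Th1+TGFb and Th1 cells were high, Th1reg cells lay a little above the array's lowest clear signal, and iTreg and rested cells were not well above background. This pattern was shared by 0.674% of all genes. The scaled level was -3.02 in Th1reg cells, 5.05 in Th1+TGFb cells and 5.21 in Th1 cells. The log2 difference of -0.16 between Th1+TGFb and Th1 cells, each read from 1 spot, was smaller than the error of 0.20 that the scanner software's own errors give it. It was 0.08 with scaling to the 75th percentile of detected probes and -0.53 with spike-in controls, so the order of the 2 cultures also depends on the scaling.

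**Figure D2:**
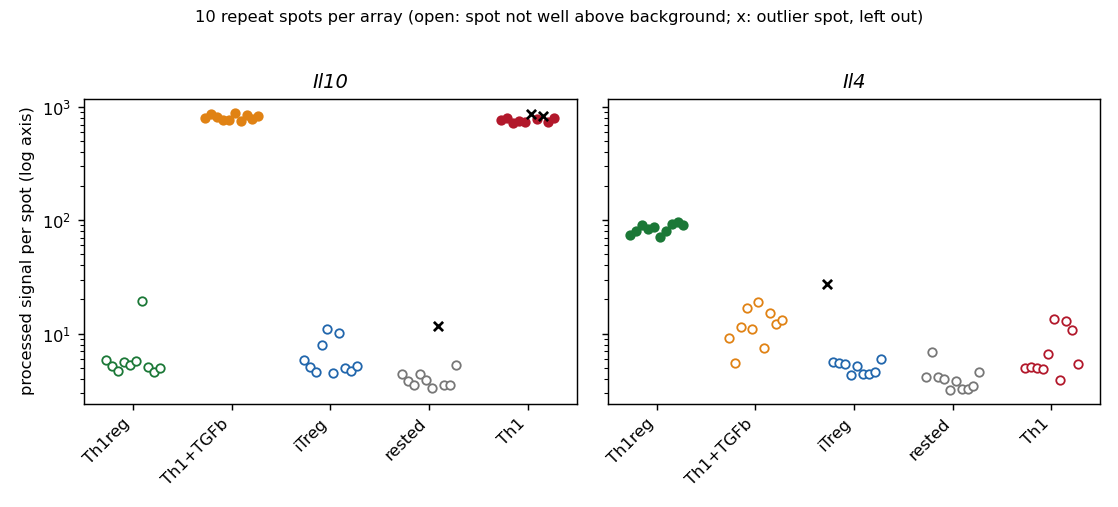
Processed signal of the 10 repeat spots of the Il10 probe (left) and the Il4 probe (right) in each culture, on a log axis, with open points for spots not well above background and crosses for outlier spots that were left out. All used Il10 spots in Th1+TGFb and Th1 cells lie far above those of the other 3 arrays, and all 10 Il4 spots in Th1reg cells lie between 71.0 and 97.1, above every used spot of the other cultures.

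Among the Th2 genes, Il4 was well above background in Th1reg cells alone. Its probe, also printed 10 times, gave 84.6 ± 8.26 in Th1reg cells (SD over 10 spots), 12.1 in Th1+TGFb cells, 5.04 in iTreg cells, 4.06 in rested cells and 7.31 in Th1 cells. The spots of Th1reg cells overlapped with those of no other array, as the plot of repeat spots shows, although the scaled level of -1.85 was low. Detection in Th1reg cells alone held for 231 genes, 1.08% of all genes. IL-4 is the signature cytokine of Th2 cells and was blocked by antibody in all 5 cultures. The array reads the transcript and not the protein, and any effect of the block on the transcript was not tested.

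IL-13, which shares a receptor chain with IL-4, had a signal of 18.8 in Th1reg cells, 35.7 in Th1+TGFb cells, 4.32 in iTreg cells, 3.22 in rested cells and 3.81 in Th1 cells. Only the Th1+TGFb signal was well above background, with an error of 5.14 by the scanner software, and 0.646% of all genes had this pattern. The Th1reg signal lay just under its array's lowest clear signal. Il5, whose product sustains eosinophils, stayed between 4.54 and 6.03 on all 5 arrays, below every array's lowest clear signal.

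IL-9, a growth factor of mast cells, was not well above background in any culture, with signals of 26.5 in Th1reg cells, 5.01 in Th1+TGFb cells, 17.4 in iTreg cells, 4.37 in rested cells and 8.27 in Th1 cells. The Th1reg signal exceeded the lowest clear signal of that array without being marked as clear itself. Il9 thus has only a bound in each culture. No clear signal on any of the 5 arrays was had by 7306 genes, 34.2% of those measured.

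The Th17 genes did not share a pattern. Il17f, whose product promotes neutrophil recruitment, had 12 in Th1reg cells, 3.81 in Th1+TGFb cells, 122 in iTreg cells, 10.3 in rested cells and 3.96 in Th1 cells. It was well above background in iTreg cells alone, with a software error of 13.0 and a scaled level of -1.15, a pattern of 1.22% of all genes. Its neighbour Il17a, the defining cytokine of Th17 cells, had 6.56 in Th1reg cells, 4.86 in Th1+TGFb cells, 17.1 in iTreg cells, 3.30 in rested cells and 4.82 in Th1 cells. The iTreg signal of Il17a was the highest of its 5 and was not well above background.

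IL-22 acts on epithelial cells rather than on leukocytes. Its gene had a signal of 10.8 in Th1reg cells, 149 in Th1+TGFb cells, 5.0 in iTreg cells, 12 in rested cells and 53.0 in Th1 cells. Th1+TGFb and Th1 cells were well above background, as for Il10, with software errors of 15.5 and 6.95. Il22 has a near-identical copy, Iltifb, whose own probe was not well above background on any array. Whether the Il22 probe also binds RNA of the copy was not tested, so the value of Il22 is uncertain in this respect.

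Il24 was the member found in the most cultures. Its signal was 46.5 in Th1reg cells, 48.1 in Th1+TGFb cells, 20.2 in iTreg cells, 27.2 in rested cells and 540 in Th1 cells. All but the iTreg signal were well above background, a pattern of 0.791% of all genes, and Th1 cells stood apart from the rest. The scaled level was -2.72 in Th1reg cells, -2.04 in Th1+TGFb cells, -2.41 in rested cells and 1.17 in Th1 cells. The low levels of Th1reg and rested cells differed by -0.31, within the error of 0.34 from the scanner software, and by 1.16 with spike-in scaling. Those of Th1reg and Th1+TGFb cells differed by -0.67, beyond the software error of 0.30, but by 0.00 with spike-in scaling. IL-24 is a secreted protein of the IL-10 family that signals through receptors containing IL-20RB.

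The cultures were next set against each other. Genes whose scaled levels were at least 2-fold apart were called higher or lower. A dim signal below the lowest clear signal of its array was raised to it. A fold against a dim signal is therefore a bound, written as at least N-fold. The bound holds for the scaling and background correction used here and not across others. In iTreg minus Th1 cells the log2 bound for Il10 was -5.34. It was -4.96 with scaling to the 75th percentile of detected probes and -3.51 with another background correction. Genes dim on both arrays were not compared. A gene clear on 1 of the 2 arrays entered only through the array where it is high, so the counts and medians over the members describe those genes and support nothing. All member calls were such bounds in iTreg against Th1 cells (5) and in Th1+TGFb against iTreg cells (6). The same held in Th1reg against rested cells (1) and in Th1reg against iTreg cells (2). Several comparisons share an array, so they are not independent of each other.

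**Figure D3:**
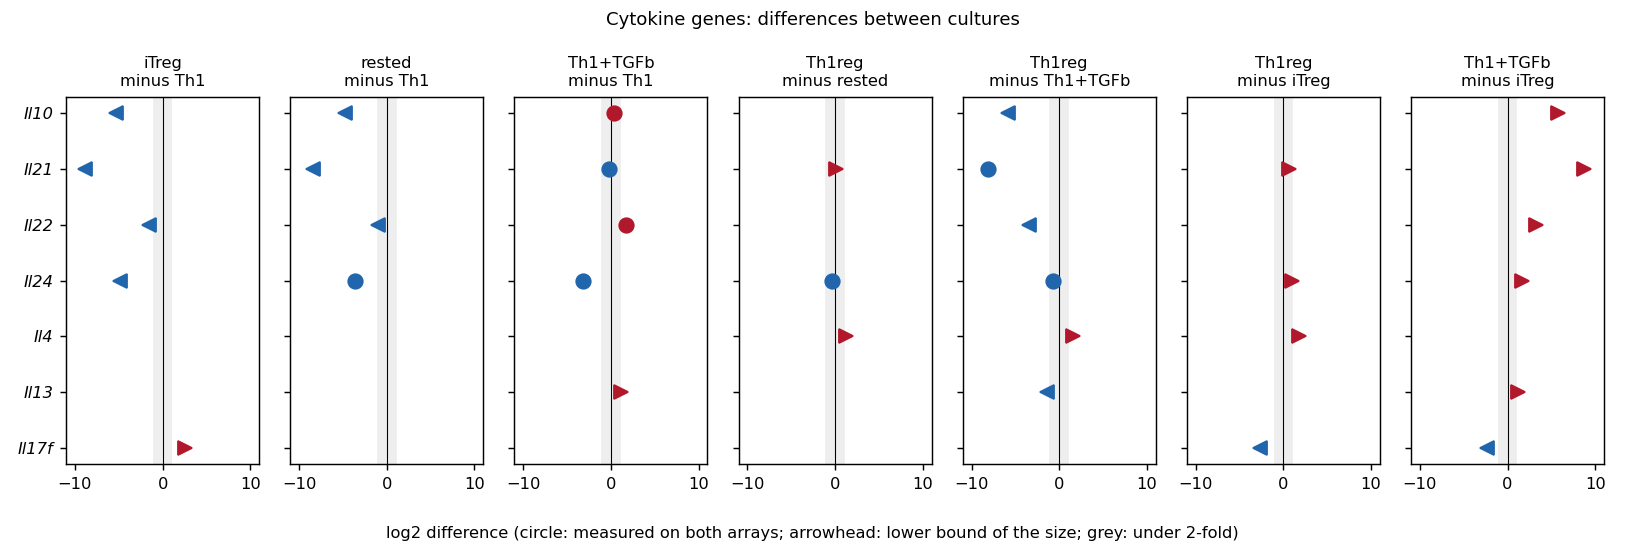
Log2 differences (x axis) of the 7 cytokine genes that could be compared (y axis) in the 7 comparisons. Circles were measured on both arrays, arrowheads are lower bounds of the size, and the grey band is under 2-fold; Il10 and Il21 lie far left in the iTreg and rested panels against Th1, and near 0 in the Th1+TGFb panel against Th1.

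In iTreg cells set against Th1 cells, 5 of the 10 genes could be compared, of which 4 were lower and 1 was higher, where 17.8% of the 13153 genes compared were lower and 10.8% were higher. Il21 was at least 471-fold lower, Il10 at least 40.5-fold, Il24 at least 28.7-fold and Il22 at least 2.81-fold. Il17f was at least 5.67-fold higher in iTreg cells. The median log2 difference over the 5, with bounds at their bound, was -4.84, against -0.24 over all genes compared. Of all genes called, 37.8% were higher, and 46.6% to 64.5% under the 3 other scalings. The markers of CD4 T cells moved with this comparison: 0 of 6 were higher and 5 were lower in iTreg cells, with a median log2 difference of -1.38, and their part in the results was not tested. The call for Il22 was lost under another background correction.

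In rested cells set against Th1 cells, 3 of 4 genes were lower and 0 were higher, against 26.6% lower and 17.5% higher among all genes compared. Il21 was at least 327-fold lower and Il10 at least 28.2-fold lower in rested cells. Il24, clear on both arrays, was 12-fold lower. Il22 was at least 1.96-fold lower, which missed the 2-fold threshold, and it passed it with spike-in scaling, with the deposited value table, with no floor and with the scanner's other detection flag. Its log2 difference was -0.44 with scaling to the 75th percentile of detected probes and -0.71 with scaling to their median. It was 0.00 with another background correction. The median over the 4 was -4.20, against -0.28 over all genes. Of all genes called, 39.7% were higher, and 6.54% to 65.5% under the 3 other scalings.

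In Th1+TGFb cells set against Th1 cells, 2 of 5 genes were higher and 1 was lower, against 11.3% higher and 7.81% lower among all genes compared. Il22 was 3.40-fold higher in Th1+TGFb cells, from signals clear on both arrays, and Il13 was at least 2.27-fold higher. Il24 was 9.31-fold lower. Il10 and Il21 were the remaining genes, and their differences of 0.36 and -0.16 on the log2 scale were under 2-fold. The median over the 5 was 0.36, against -0.20 over all genes. Of all genes called, 59.2% were higher, and 24.3% to 78.5% under the 3 other scalings. Il13 no longer passed 2-fold when the arrays were scaled to spike-in controls or given another background correction.

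In Th1reg cells set against rested cells, from which they were made, 1 of 3 genes was higher and 0 were lower, against 27.5% higher and 19.7% lower among all genes compared. Il4 was at least 2.44-fold higher in Th1reg cells. Il21 was at least 1.09-fold higher and Il24 had a log2 difference of -0.31, neither of them 2-fold. The call for Il4 did not hold when the arrays were scaled to the 75th percentile of probes detected on all arrays or with another background correction. With scaling to spike-in controls Il24 turned to 1.16 and Il21 reached 1.59 on the log2 scale, and Il21 was at 2.18 with no floor and with the scanner's other detection flag. The median over the 3 was 0.13, against 0.28 over all genes. Of all genes called, 58.3% were higher, and 36.4% to 93.2% under the 3 other scalings.

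In Th1reg cells set against Th1+TGFb cells, which had the same iTreg medium without the rest, 4 of 6 genes were lower and 1 was higher, against 14.7% lower and 12.4% higher among all genes compared. Il21 was 268-fold lower in Th1reg cells, where its signal was clear but near the lowest clear signal, so this fold is imprecise. Il10 was at least 58.7-fold lower, Il22 at least 10.8-fold and Il13 at least 2.58-fold. Il4 was at least 3.0-fold higher in Th1reg cells, and Il24, at -0.67 on the log2 scale, was under 2-fold. The median over the 6 was -2.40, against 0.20 over all genes. Called genes as a whole were higher in 45.7% of cases, and in 28.0% to 84.7% under the 3 other scalings. The calls for Il4 and Il13 were lost under another background correction, and that for Il13 also with spike-in scaling.

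Th1reg and iTreg cells had both ended with 4 days in the iTreg medium. Of the 4 genes compared, 1 was higher and 1 lower in Th1reg cells, against 15.8% higher and 11.7% lower among all genes compared. Il4 was at least 3.51-fold higher in Th1reg cells and Il17f at least 6.47-fold lower. Il21 was at least 1.57-fold and Il24 at least 1.93-fold higher, short of 2-fold, which Il24 passed with the deposited value table and both passed with no floor or the scanner's other detection flag. The median over the 4 was 0.80, against 0.28 over all genes. Called genes as a whole were higher in 57.6% of cases, and in 31.5% to 58.8% under the 3 other scalings. Of the 6 CD4 T cell markers 3 were higher and 0 lower in Th1reg cells, and 1 was higher with the 75th percentile of detected probes. The call for Il4 was lost under another background correction.

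In Th1+TGFb cells set against iTreg cells, 5 of 6 genes were higher and 1 was lower, against 16.3% higher and 10.7% lower among all genes compared. Il21 was at least 420-fold higher, Il10 at least 51.9-fold, Il22 at least 9.56-fold, Il24 at least 3.08-fold and Il13 at least 2.29-fold. Il17f was at least 4.88-fold lower in Th1+TGFb cells. The median over the 6 was 2.44, against 0.09 over all genes. Called genes as a whole were higher in 60.4% of cases, and in 21.0% to 63.1% under the 3 other scalings. Of the 6 CD4 T cell markers 5 were higher and 0 lower in Th1+TGFb cells, with a median of 1.67. With spike-in scaling 3 of these markers were higher, with a median of 1.02. The calls for Il24 and Il13 were lost with spike-in scaling and under another background correction.

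Of 17 transcription factors known to act on these cytokine genes, 16 were well above background in at least 1 culture, all but Spi1. The Th2 factor Gata3 had scaled levels of 2.13 in Th1reg cells, 2.36 in Th1+TGFb cells, 2.27 in iTreg cells, 3.21 in rested cells and 0.28 in Th1 cells. Its level was lowest in Th1 cells and highest in rested cells, where no Il4, Il5 or Il13 signal was clear. The top place of rested cells was lost with spike-in scaling, which lowers their levels by 1.16 relative to Th1 cells. Ahr, a ligand-activated factor known for its action on Il22, was -0.84 in Th1reg cells, 0.93 in Th1+TGFb cells, 0.65 in iTreg cells and -2.58 in Th1 cells, and not well above background in rested cells.

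Maf, known to act on Il10, Il21 and Il4, had scaled levels of 1.33 in Th1reg cells, 1.59 in Th1+TGFb cells, 2.41 in iTreg cells, 0.14 in rested cells and 0.58 in Th1 cells, and was highest where neither Il10 nor Il21 was clear. Prdm1, which encodes Blimp-1, another factor known to act on Il10, was -1.36 in Th1reg cells, 1.55 in Th1+TGFb cells, 0.00 in rested cells and 2.22 in Th1 cells, and not well above background in iTreg cells. The highest 2 cultures were those with a clear Il10 signal. Nfil3, also known to act on Il10, was 2.38 in Th1reg cells, 4.49 in Th1+TGFb cells, 1.39 in iTreg cells, 2.45 in rested cells and 6.11 in Th1 cells, with the same 2 cultures at the top. Bhlhe40, known as a repressor of Il10, was 3.67 in Th1reg cells, 5.06 in Th1+TGFb cells, 1.71 in iTreg cells, 1.55 in rested cells and 4.64 in Th1 cells, again with these 2 at the top.

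**Figure D4:**
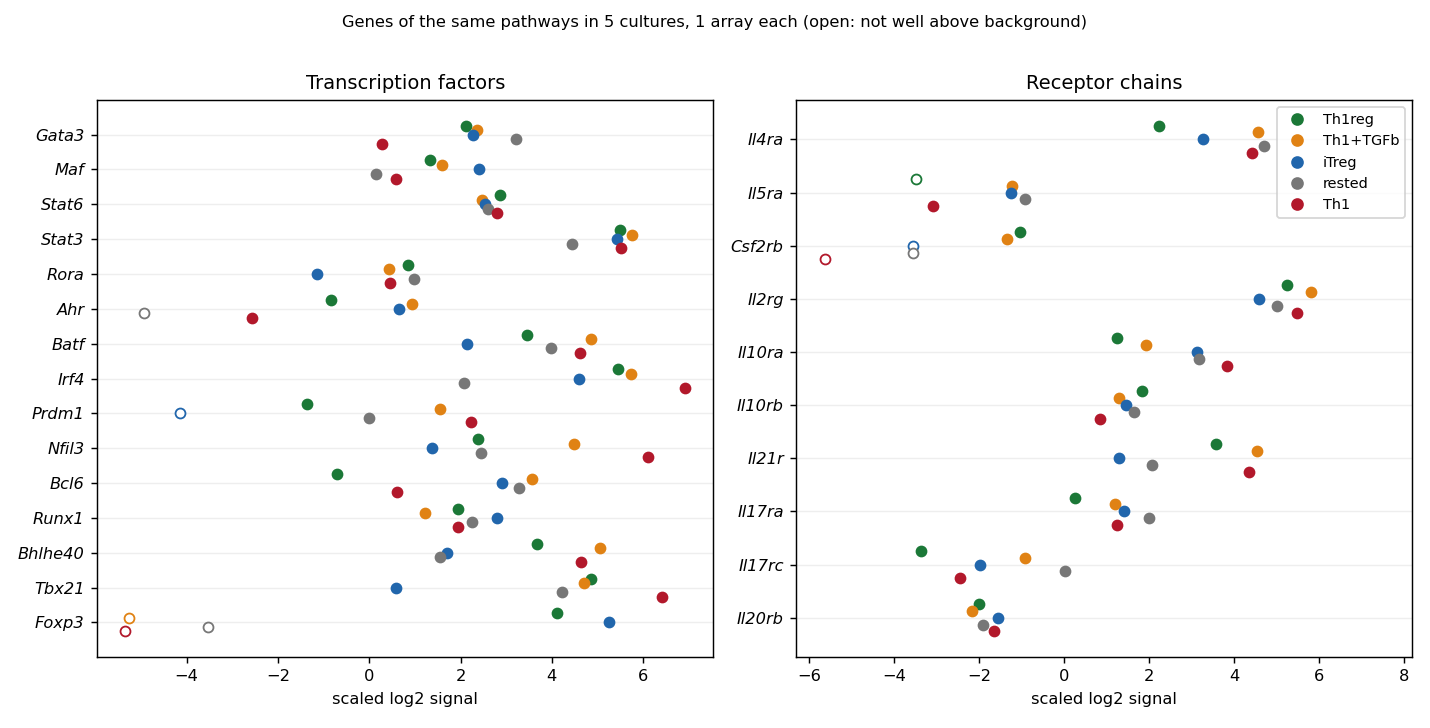
Scaled log2 signal (x axis, 0 is the array's 75th percentile) of the transcription factors known to act on the cytokine genes (left) and of the chains of their receptors (right), for the genes shown, all clear in at least 1 culture, 1 point per array and colour. Open points are not well above background; Gata3 is lowest in Th1 cells, and Prdm1, Nfil3 and Bhlhe40 highest in Th1+TGFb and Th1 cells.

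Counted by comparison, 6 of the 16 factors compared were higher in iTreg than in Th1 cells and 7 were lower, with a median log2 difference of -0.17, where 10.8% of all genes were higher and 17.8% lower. In rested against Th1 cells 2 of 15 were higher and 6 lower (median -0.57; all genes 17.5% and 26.6%), and in Th1+TGFb against Th1 cells 5 of 15 were higher and 3 lower (median 0.24; all genes 11.3% and 7.81%). Th1reg against rested cells gave 7 higher and 3 lower of 16 (median 0.45; all genes 27.5% and 19.7%), among them Irf4, a factor that the T cell receptor induces, at 10.4-fold higher and the germinal centre repressor Bcl6 at 16.0-fold lower. Th1reg against Th1+TGFb cells gave 1 higher and 7 lower of 16 (median -0.27; all genes 12.4% and 14.7%), where the gene that was higher was Foxp3, the regulatory T cell factor, by at least 189-fold. Th1reg against iTreg cells gave 5 higher and 5 lower of 16 (median 0.20; all genes 15.8% and 11.7%). Th1+TGFb against iTreg cells gave 7 higher and 2 lower of 16 (median 0.50; all genes 16.3% and 10.7%). With spike-in scaling, tried after seeing the data, the counts were 12 higher and 1 lower in Th1reg against rested cells. They were 2 and 11 in rested against Th1 cells, and 4 and 4 in Th1reg against Th1+TGFb cells. Th1+TGFb cells gave 4 and 5 against Th1 cells (median -0.13) and 5 and 4 against iTreg cells (median -0.15). The counts were 7 and 7 in iTreg against Th1 cells (median 0.12) and 6 and 5 in Th1reg against iTreg cells (median 0.22). The Th1 factor Tbx21 was 19.4-fold higher in Th1reg and 17.5-fold higher in Th1+TGFb cells than in iTreg cells.

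Of 16 receptor chains that bind these cytokines, 10 were clear in at least 1 culture. Il21r, the receptor of IL-21, had scaled levels of 3.57 in Th1reg cells, 4.54 in Th1+TGFb cells, 1.30 in iTreg cells, 2.07 in rested cells and 4.34 in Th1 cells, and so was highest in the 3 cultures with a clear Il21 signal. Il10ra, the ligand-binding chain of the IL-10 receptor, was 1.24 in Th1reg cells, 1.93 in Th1+TGFb cells, 3.12 in iTreg cells, 3.18 in rested cells and 3.83 in Th1 cells. It was lowest in the 2 cultures that had been Th1 cells and then entered the iTreg medium. Il4ra, the shared chain of the IL-4 and IL-13 receptors, was 2.24 in Th1reg cells, where Il4 was clear, 4.57 in Th1+TGFb cells, 3.27 in iTreg cells, 4.70 in rested cells and 4.44 in Th1 cells. Th1reg cells thus had the lowest Il4ra level.

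By comparison, 2 receptor chains were higher and 5 lower of 10 in Th1reg against rested cells, with a median log2 difference of -0.92, against 0.28 over all genes, of which 27.5% were higher and 19.7% lower. With spike-in scaling, tried after seeing the data, this turned to 5 higher and 2 lower, with a median of 0.55. In Th1reg against Th1+TGFb cells 0 were higher and 3 lower of 10 (median -0.82; all genes 12.4% and 14.7%), and in Th1reg against iTreg cells 2 were higher and 5 lower of 10 (median -0.74; all genes 15.8% and 11.7%). With spike-in scaling Th1reg against Th1+TGFb cells gave 1 higher and 3 lower (median -0.14). Th1reg against iTreg cells then gave 2 higher and 5 lower (median -0.72). Il17rc, a chain of the receptor for IL-17A and IL-17F, was 10.4-fold lower in Th1reg than in rested cells and 5.44-fold lower than in Th1+TGFb cells. Th1+TGFb against iTreg cells gave 5 higher and 1 lower of 10 (median 0.54; all genes 16.3% and 10.7%), and 2 and 2 with spike-in scaling (median -0.12). The counts were 1 higher and 2 lower of 9 in iTreg against Th1 cells (median 0.09; all genes 10.8% and 17.8%), 2 higher and 1 lower of 9 in rested against Th1 cells (median 0.27, and -0.89 with spike-in scaling; all genes 17.5% and 26.6%), and 3 higher and 1 lower of 10 in Th1+TGFb against Th1 cells (median 0.27, and -0.10 with spike-in scaling; all genes 11.3% and 7.81%).

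Other genes of the same chromosome regions were read beside the cytokine genes. Il4, Il13 and Il5 lie on chromosome 11 with Rad50 between Il13 and Il5, and Rad50, a DNA repair gene, was clear in every culture, with scaled levels of 2.76 in Th1reg cells, 1.82 in Th1+TGFb cells, 2.48 in iTreg cells, 1.30 in rested cells and 2.43 in Th1 cells. Csf2, the gene of GM-CSF, and Il3 lie on the same chromosome but not within 3 genes of a member. Csf2 was 4.78 in Th1reg cells, 2.08 in Th1+TGFb cells, -0.78 in iTreg cells, -2.27 in rested cells and -1.28 in Th1 cells, highest in the culture with a clear Il4 signal and there 132-fold above rested cells. Il3, a growth factor of myeloid cells, was 2.35 in Th1reg cells, 3.79 in Th1+TGFb cells, 3.55 in iTreg cells and 1.18 in Th1 cells, and was not clear in rested cells.

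Il24, Il20, Il19 and Il10 lie in a row, and Il19 and Il20 were not well above background in any culture, while Mapkapk2, next to Il10, was clear in all 5, at 4.29 in Th1reg cells, 5.02 in Th1+TGFb cells, 3.56 in iTreg cells, 2.49 in rested cells and 4.87 in Th1 cells. Il2, the gene beside Il21 and a T cell growth factor, was 1.65 in Th1+TGFb cells, -0.30 in iTreg cells, -2.54 in rested cells and -3.04 in Th1 cells, and not clear in Th1reg cells. Th1 cells, with one of the 2 high Il21 levels, had the lowest clear Il2 level, a place that rested cells took with spike-in scaling. Ifng, which shares the Il22 region and encodes the signature Th1 cytokine, was 8.37 in Th1reg cells, 9.56 in Th1+TGFb cells, 1.27 in iTreg cells, 2.79 in rested cells and 10.23 in Th1 cells. In Th1reg cells it was 47.9-fold above rested cells, a comparison in which Il22 was clear in neither culture.

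Of the 15 genes listed for these regions, 6 were higher and 2 lower of 11 in Th1reg against rested cells (median 1.46; all genes 27.5% and 19.7%). In Th1+TGFb against iTreg cells 6 were higher and 0 lower of 11 (median 1.46; all genes 16.3% and 10.7%). The counts were 4 higher and 2 lower of 10 in Th1reg against iTreg cells (all genes 15.8% and 11.7%), and 2 higher and 4 lower of 11 in Th1reg against Th1+TGFb cells (all genes 12.4% and 14.7%), and 4 and 2 in this last comparison with spike-in scaling. They were 4 higher and 1 lower of 12 in Th1+TGFb against Th1 cells (all genes 11.3% and 7.81%), 1 higher and 5 lower of 12 in rested against Th1 cells (all genes 17.5% and 26.6%), and 2 higher and 3 lower of 11 in iTreg against Th1 cells (all genes 10.8% and 17.8%). With spike-in scaling, tried after seeing the data, the counts were 7 higher and 0 lower in Th1reg against rested cells. They were 4 and 2 in Th1+TGFb against iTreg cells (median 0.81), and 4 and 2 in Th1+TGFb against Th1 cells. Rested against Th1 cells gave 0 and 9, and the counts of iTreg against Th1 and Th1reg against iTreg cells stayed the same. Of the 8 other cytokines of the IL-10 and IL-17 families, 7 had a probe and 2 were clear in any culture, Ifnl3 and Il17d.

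For the genes clear in at least 2 cultures, those with the most similar pattern were found among genes clear on the same arrays, by the root mean square difference of centred log2 levels over the 5 arrays. Dim signals below the array's lowest clear value were set to it, and a dim signal above it kept its own value. Genes set to that value had equal levels there before centring. The genes named below for Il10 and Il22 thus differed from them on 2 of 5 arrays only. The measure also depends on how far a gene stands above that value. Moxd1 was nearest to Il10, at 0.315, of 80 genes, followed by Alpk2 at 1.16 and Arhgef10l at 1.18. Sdc1, which encodes the proteoglycan syndecan-1, was nearest to Il21, at 1.87, followed by Sulf2 at 2.27, of 126 genes. Tmigd3 (0.102), Oit3 (0.160) and Foxf1 (0.165) were nearest to Il22 of 80 genes, and Tuba8 (0.359), Dnm1 (0.786) and Siah3 (0.957) to Il24 of 155.

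Markers of other cells were read in the same way. Of 5 mast cell and basophil markers, which would mark other sources of Il4 and Il13, 0 were well above background on any array. Of 3 markers of type 2 innate lymphoid cells, Il17rb was at background on all arrays, and Il1rl1, which regulatory T cells also make, was highest where Il4 was clear, with scaled levels of 0.14 in Th1reg cells, -0.85 in Th1+TGFb cells, -2.38 in iTreg cells, -0.62 in rested cells and -1.50 in Th1 cells. The other clear marker, Gata3, did not follow, and its log2 difference in Th1reg minus rested cells was -1.08. That difference depends on the scaling, as 0 of these 2 markers were called lower in this comparison with spike-in scaling. Of 2 markers of CD8 T cells, Cd8b1 was clear in every culture and Cd8a in iTreg cells alone, at -0.29, the culture with the clear Il17f signal. The summed CD8 marker signal, dim signals included, was 0.233 in Th1reg cells, 0.280 in Th1+TGFb cells, 1.29 in iTreg cells, 0.644 in rested cells and 0.294 in Th1 cells. The part of Il1rl1-bearing or CD8 cells in these results was not tested.

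Of 3 gamma-delta T cell markers, 2 had a probe, of which Blk was at background on all arrays and Sox13 was clear in all, and both NKT cell markers, Zbtb16 and Slamf6, were clear in all. Of 6 myeloid markers, 2 to 4 were clear, with summed signals of 49.4 in Th1reg cells, 249 in Th1+TGFb cells, 96.5 in iTreg cells, 460 in rested cells and 92.8 in Th1 cells, nearly all of it from Itgam, which T cells can also make, while Lyz2 and S100a8 were at background on all arrays. Of 5 B cell markers, 1 or 2 were clear, and Cd79a and Pax5 were at background on all arrays. Eomes was the NK cell marker of 3 that was clear, in every culture.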

How the data were processed

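The deposited scanner files hold, per the file headers, a linear intensity that Agilent Feature Extraction 10.7.1.1 had corrected for background and for trends across the array. The deposited value table holds the same intensity divided by 1 constant per array (99.7% to 99.8% of probes lie within 0.01 log2 units of it), with column medians of 0.0693 to 0.123, and served as an alternative. Its columns had a 75th percentile of 1.00, so its scaling is close to the one used here. Control and outlier spots were left out, the spots of a probe were averaged, and log2 of the mean minus log2 of the array's 75th percentile was used (Python 3.11.15, pandas 2.3.3, numpy 2.4.6). A probe was clear when most of its used spots were well above background. Otherwise it was raised to the array's lowest clear value if it lay below that value. Of 55681 probes, 28331 were named through RefSeq accessions in a table of GRCm38.p6, giving 21366 genes with values, each by its brightest probe. The files name mm9, so no coordinates of the probes are given. The members and lists were chosen with earlier results of these data known. The rule for named genes took all 10 members, the called genes of the listed factors, receptors and neighbours, of which the text names a part, and the 3 genes nearest in pattern to each member clear on several arrays. The planned normexp correction could not use the mean signal, which was not among the columns used here, so it was run on the median signal (limma 3.58.1, offset 50), a choice made after seeing the data. The script for differences was tested on simulated data. Some listed genes are not reported here. The number of arrays limits the precision.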

Additional observations from a re-analysis of the deposited data

How the results depend on the processing

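Over 264 repeats of the members' differences under 8 alternatives, 238 kept their side of 2-fold and the direction of any call, 13 dropped under 2-fold, 12 passed it and 1 reversed. A ninth alternative, the mean of a gene's probes, could not move genes with 1 probe. The reversal was Il24 in Th1reg minus rested cells, at 1.16 with spike-in controls. In that comparison, where 1 member was 2-fold apart, the number was 0 with normexp and with detected probes scaled to their 75th percentile, 3 with spike-in controls, 2 with no floor and 5 with the scanner's positive-and-significant flag. The count in rested minus Th1 cells was 5 with that flag against 3. In Th1reg minus Th1+TGFb cells it was 3 with normexp and 7 with that flag, against 5. In Th1+TGFb minus iTreg cells it was 4 with spike-in controls, 4 with normexp and 9 with that flag, against 6. In Th1reg minus iTreg cells it was 1 with normexp, 4 with no floor and 6 with that flag, against 2. Some smaller changes are left out. The cause of these changes was not tested, except that no floor and the flag change which dim signals count. Il4 in Th1reg cells had log2 differences of 0.78 against rested cells with the 75th percentile of detected probes, and of 0.38, 0.50 and 0.88 in its 3 comparisons with normexp. Scaling to 8 spike-in probes moved the median of all genes by -1.16 in rested minus Th1 cells, 1.47 in Th1reg minus rested cells, 0.67 in Th1reg minus Th1+TGFb cells and -0.66 in Th1+TGFb minus iTreg cells. The 75th percentile of detected probes moved the median by -0.51 to 0.53. The 2-fold calls for Il10 and Il21 held under these 8, of which the deposited value table is close to the scaling used. The sizes of their bounds did not hold. The log2 bound for Il21 in iTreg minus Th1 cells was -8.88, and -6.92 with normexp. No paired analysis was possible because each group had 1 array. Signals near the lowest clear one limit Il4, Il13, Il22 and the low levels of Il21 and Il24.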
